A study of Mus musculus with 12 samples.

Results

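The postsynaptic density is the protein mesh that lies under the excitatory synapse and ties glutamate receptors to the actin of the dendritic spine. The expression of its 10 core scaffold genes, Dlg1, Dlg2, Dlg3, Dlg4, Shank1, Shank2, Shank3, Homer1, Homer2 and Homer3, was examined in mouse dorsal hippocampus, 10 of 52634 genes counted by RNA sequencing. They were chosen by symbol, each symbol matched 1 gene, and all 10 passed the filter on low counts and were tested. Tissue was taken at postnatal day 7 from SERTPyramid pups and from SERTfl/fl control pups. SERTfl/fl pups carry floxed alleles of Slc6a4, the serotonin transporter gene. SERTPyramid pups lack the transporter in pyramidal neurons. The study's title places the question in CA3 pyramidal neurons, and no Cre driver is named in the sources used here. The 12 libraries, each made from the pooled tissue of 4 mice, comprised 3 SERTPyramid and 3 SERTfl/fl libraries labelled female, and 3 SERTPyramid and 3 SERTfl/fl libraries labelled male.

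The 3 families form successive layers of the scaffold. The Dlg genes encode membrane-associated guanylate kinases, whose PDZ domains hold the tails of NMDA receptors, of AMPA receptor partner proteins and of neuroligins. SAPAP proteins link these to the Shank proteins, large multidomain scaffolds that bind Homer. Homer proteins assemble through their coiled coils and use their EVH1 domains to hold metabotropic glutamate receptors, inositol trisphosphate receptors and Shank. At this age hippocampal excitatory synapses are still forming. Homer1 also makes a short, activity-induced transcript, Homer1a, which lacks the coiled coil. The gene counts do not separate it from the long forms.

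The promoters of Homer1 and Homer2 show how differently the starts of closely related scaffold genes are built, and they are printed here because Homer1 is the member known for activity-dependent transcription. Both run from 250 bases before to 50 bases after a transcription start listed by RefSeq on GRCm38.p6, the Homer1 promoter at chr13:93303507-93303806 on the plus strand and the Homer2 promoter at chr7:81706876-81707175 on the minus strand. Capitals mark TGACGT, the core of the cyclic AMP response element bound by CREB family factors.
Homer1: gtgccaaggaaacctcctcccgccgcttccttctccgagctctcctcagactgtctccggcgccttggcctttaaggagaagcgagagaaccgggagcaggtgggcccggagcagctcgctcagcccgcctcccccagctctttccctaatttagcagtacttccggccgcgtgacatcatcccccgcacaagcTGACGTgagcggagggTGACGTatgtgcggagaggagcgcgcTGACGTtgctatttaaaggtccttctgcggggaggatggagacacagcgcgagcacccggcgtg
Homer2: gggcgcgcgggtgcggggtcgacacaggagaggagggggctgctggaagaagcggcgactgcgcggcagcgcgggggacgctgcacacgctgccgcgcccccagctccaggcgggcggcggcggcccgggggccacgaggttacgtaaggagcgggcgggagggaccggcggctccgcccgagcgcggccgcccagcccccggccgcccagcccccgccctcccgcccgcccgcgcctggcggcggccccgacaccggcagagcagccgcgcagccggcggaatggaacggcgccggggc
The Homer1 promoter held 3 matches, which began 56, 40 and 14 bases before the start, and its GC content was 63.0%. The Homer2 promoter held 0 matches on either strand and its GC content was 82.3%. Promoters of 8 of the 10 members were searched, Shank1 and Shank2 being the others, and Homer1 was the only 1 of the 8 with a match. Only the first-listed start of each gene was searched, here and in the background that follows. Other starts of the same genes may hold matches. For Dlg2 the window, chr7:91090536-91090835, lay inside the gene, which begins at 90476672. TGACGT, searched on both strands, occurred in 7.64% of 27025 promoters of this length, and 0.211% held 3 or more matches. A match describes letters only, and no binding was measured.

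Library totals were 18747249 to 25522347 counts. Counts per library ran from 462 to 680 for Homer3, the member with the fewest, and from 18599 to 26031 for Shank1, the member with the most. Slc6a4 had 12, 3 and 1 counts in labelled-female SERTPyramid libraries, against 5, 16 and 9 in labelled-female SERTfl/fl libraries. It had 8, 3 and 7 counts in labelled-male SERTPyramid libraries, against 0, 17 and 12 in labelled-male SERTfl/fl libraries, so the deletion could not be checked at this depth. In 10 of 12 libraries Xist and Y-linked transcripts contradicted the sex on the label, so female and male below name labels only. The exceptions were SERTfl/fl replicate 1 labelled female, with 20646 Xist and 1 Y-linked counts, and SERTfl/fl replicate 1 labelled male, with 14 and 2159. SERTfl/fl replicate 3 labelled female carried both signals, with 527 Xist and 2849 Y-linked counts. By these transcripts the SERTPyramid libraries of each label were of 1 sex, while the SERTfl/fl libraries of each label were mixed, so every contrast within a label also sets libraries of unequal sex make-up against each other. Without SERTfl/fl replicate 1 of both labels, and with Y-linked expression as a covariate, 0 of 10 scaffold genes passed the test in any comparison by edgeR. No gene of the whole table was called in either fit, so this 0 had to follow. It does not describe the scaffold genes or the part of sex. Pyramidal neuron markers were detected in every library, 9 of 9, with a summed level of 2344 to 2525 CPM (counts scaled by the library total) in labelled-female SERTPyramid libraries against 2425 to 2625 CPM in labelled-female SERTfl/fl libraries. The same sum was 2398 to 2538 CPM in labelled-male SERTPyramid libraries against 2320 to 2444 CPM in labelled-male SERTfl/fl libraries. In whole tissue, fewer cells of a type and less RNA per cell cannot be told apart. Of 12 lists of cell type markers, none of whose genes was at 0 in any library, the summed level did not overlap between genotypes for 3 lists in labelled females and for 0 lists in labelled males. Among all single genes tested, SERTPyramid was higher without overlap for 11.8% and lower for 6.99% in labelled females. Those shares were 4.09% and 2.66% in labelled males. Dentate granule neuron markers summed to 248.7 to 274.0 CPM in labelled-female SERTPyramid libraries, against 280.9 to 344.2 CPM in labelled-female SERTfl/fl libraries. Oligodendrocyte precursor markers summed to 493.2 to 502.3 CPM against 473.0 to 482.2 CPM, and red blood cell markers to 43.8 to 53.5 CPM against 58.0 to 67.1 CPM, in the same libraries. By log2 fold change there, 4 of 4 dentate granule neuron markers and 5 of 5 red blood cell markers were below 0. Of 3 oligodendrocyte precursor markers 2 were above 0 and 1 below. Choroid plexus markers, a sign of dissection, varied most, from a summed 21.1 CPM in SERTPyramid replicate 3 labelled female to 2428 CPM in SERTPyramid replicate 1 labelled male, and the part of these marker levels in the results was not tested.

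At this age Shank1, Dlg4 and Shank3 were the most abundant scaffold transcripts and Dlg1 the least. Levels were compared between genes as CPM per kb of annotated exon, averaged over the 12 libraries. Shank1, which encodes a scaffold found almost exclusively in brain, stood at 95.8 ± 3.29 CPM per kb (SD, n = 12). Dlg4, which encodes PSD-95, the most abundant of these kinases in mature synapses, stood at 68.0 ± 1.51 CPM per kb (SD, n = 12). Shank3, the gene whose loss in people causes Phelan-McDermid syndrome, stood at 45.8 ± 2.07 CPM per kb, and the X-linked Dlg3 at 36.3 ± 1.05 CPM per kb (SD, n = 12). Each of these 4 genes exceeded the next in every library, with no overlap between neighbouring ranges.

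Shank2 at 26.8 ± 1.24 and Dlg2 at 25.9 ± 1.65 CPM per kb followed (SD, n = 12), and their ranges of 23.9 to 28.3 and 22.1 to 27.6 overlapped, although Shank2 was above Dlg2 in 10 of 12 libraries. The Homer genes formed a lower tier. Homer2 averaged 9.05 ± 0.63, Homer1 8.07 ± 0.338 and Homer3 6.77 ± 0.557 CPM per kb (SD, n = 12). Their neighbouring ranges overlapped, yet Homer2 exceeded Homer1 in 12 of 12 libraries and Homer1 exceeded Homer3 in 11 of 12. Dlg1, the member of its family that also serves epithelial cells, was lowest at 3.90 ± 0.219 CPM per kb (SD, n = 12). Against all 17604 tested genes with a known length, Shank1 lay above 98.1%, Dlg4 above 96.9% and Shank3 above 94.7%. Dlg3 lay above 92.9%, Shank2 above 89.7% and Dlg2 above 89.3% of them. Homer2, Homer1 and Homer3 lay above 70.2%, 67.5% and 63.3%, and Dlg1 lay above 50.3%.

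**Figure D1:**
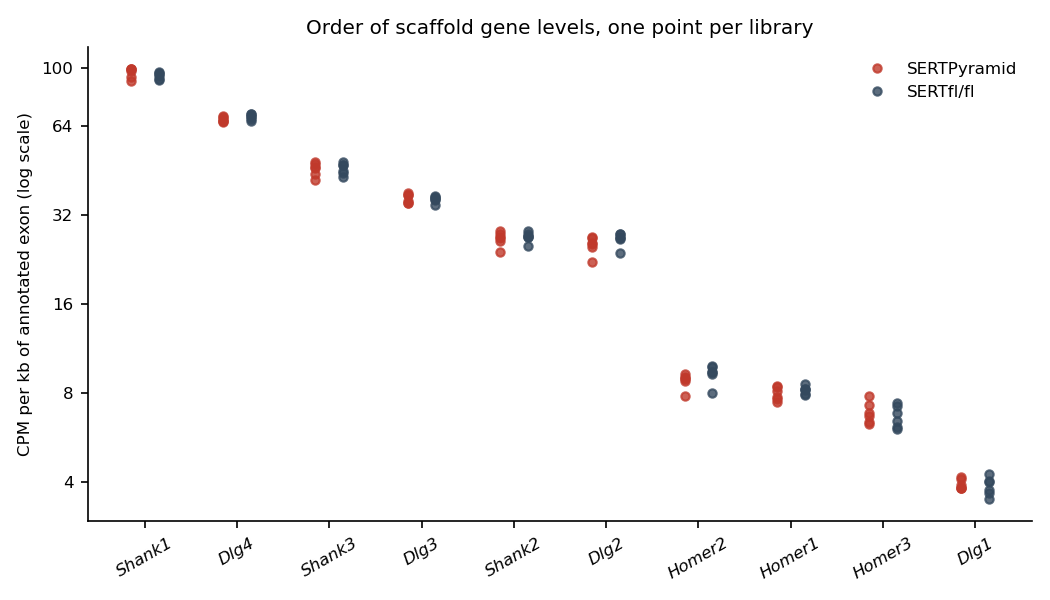
CPM per kb of annotated exon, on a log axis, for the 10 scaffold genes ordered by mean level, with 1 point per library and SERTPyramid left of SERTfl/fl. Shank1 averages 95.8 and Dlg1 3.90 CPM per kb, and within each gene the ranges of both genotypes overlap.

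The order depended on which length was used. With the longest protein-coding transcript of each gene in place of all annotated exons, an alternative added after the data were seen, Dlg4 came above Shank1, at 142.5 against 102.5 CPM per kb. Dlg2 moved above Dlg3 and Shank2 at 54.0 CPM per kb, and Homer1 at 16.9 passed Homer2 at 10.4 CPM per kb. Shank3 at 57.1, Homer3 at 8.94 and Dlg1 at 6.81 CPM per kb kept their places. Which transcripts are made was not measured, so neither order can be preferred from the counts.

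Within families, per kb of exon, Dlg4 made up 50.7 ± 0.85% of the Dlg total, Dlg3 27.1 ± 0.63%, Dlg2 19.3 ± 0.78% and Dlg1 2.91 ± 0.13% (SD, n = 12). Shank1 made up 56.9 ± 0.79% of the Shank total, Shank3 27.2 ± 0.59% and Shank2 15.9 ± 0.46% (SD, n = 12). The Homer total was divided more evenly, with 37.8 ± 1.9% for Homer2, 33.8 ± 0.97% for Homer1 and 28.4 ± 2.2% for Homer3 (SD, n = 12). These shares depend on the length used, as the order did, and the SD does not cover that choice. Per kb of longest transcript, Homer1 stood above Homer2 and Dlg2 above Dlg3. In labelled females the Shank1 share was 57.2 to 57.6% in SERTPyramid libraries, against 55.5 to 56.6% in SERTfl/fl libraries. The Dlg3 share there was 27.3 to 27.5% in SERTPyramid libraries, against 26.7 to 27.0% in SERTfl/fl libraries. Neither share overlapped between genotypes in labelled females, where the shares of all other members did, and both overlapped in labelled males. Among all genes tested, the CPM of 11.8% was higher in SERTPyramid without overlap in labelled females. Shares within a family are tied to each other and were not tested. They were not recomputed with the GC correction given below, which took the labelled-female log2 fold change of Shank1 from 0.05 to -0.0076.

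The first question put to these genes was whether they differed between SERTPyramid and SERTfl/fl libraries. None of the 10 did by the test used. Fold changes, their standard errors (SE) and p-values came from edgeR's quasi-likelihood test on all 12 libraries in 4 groups, with Benjamini-Hochberg adjustment over 17631 genes and a threshold of 0.05. An adjusted p under 0.05 was reached by 0 of 10 members in labelled females, in labelled males, in the mean of both and in the difference between them, against 0.00% of all genes tested in each of the 4 comparisons. An unadjusted p under 0.05 was reached by 0 of 10 members in each as well. The share of all genes below that unadjusted p was 8.04% in labelled females, 3.16% in labelled males, 6.49% for the mean and 4.45% for the difference. Nothing in the sources used here says whether pools shared litters, and p-values reflect only the spread among these 12 libraries.

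Groups that did not overlap in CPM were found for 0 of 10 members in either direction and either labelled sex. Among all genes tested SERTPyramid was higher without overlap for 11.8% and lower without overlap for 6.99% in labelled females. In labelled males the shares were 4.09% higher and 2.66% lower. In the mean over labelled sexes, the 95% confidence intervals of the 10 members lay between -13.5% and 11.8% relative to SERTfl/fl. Larger differences in gene-level RNA were outside the interval of every member, and differences inside an interval could not be resolved with these libraries. Among the tightest, the interval of Dlg4 ran from -7.6 to 1.73% and that of Dlg3 from -5.06 to 4.81%.

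**Figure D2:**
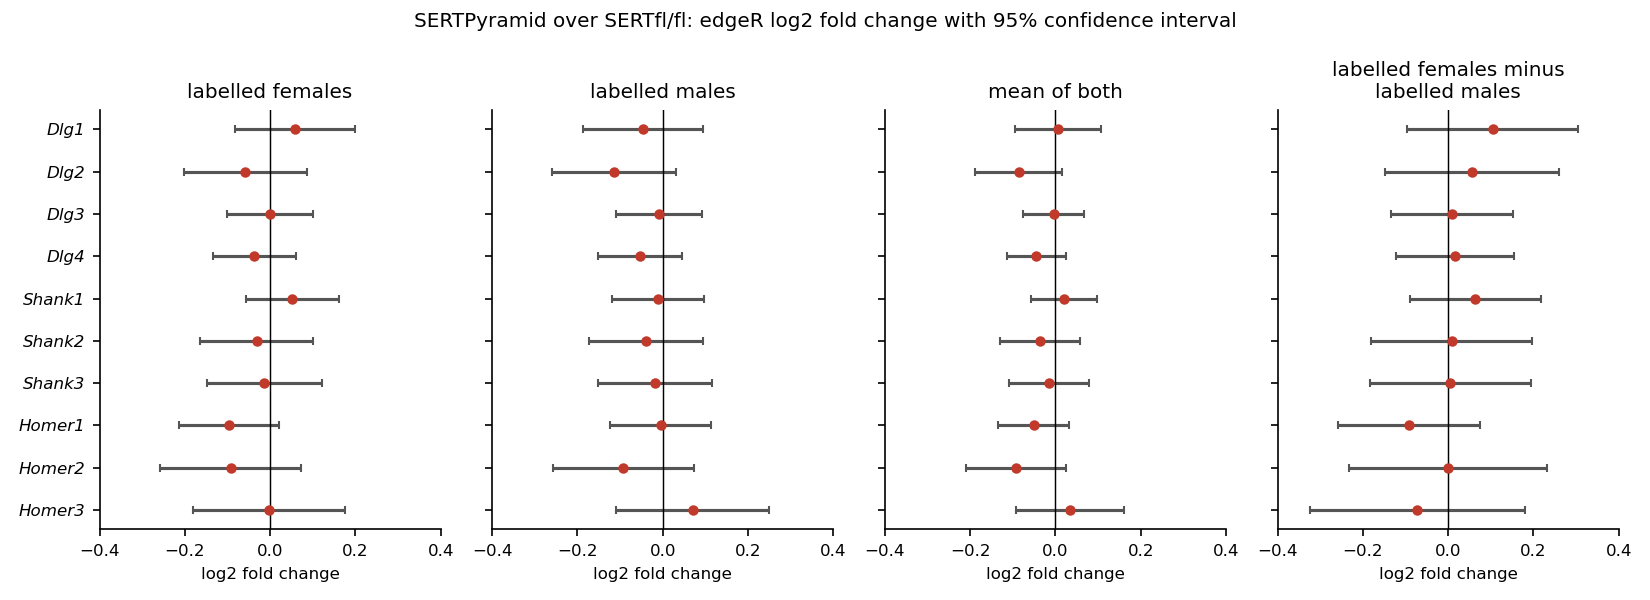
Log2 fold change of SERTPyramid over SERTfl/fl with its 95% confidence interval from edgeR for the 10 scaffold genes, in labelled females, in labelled males, as the mean of both and as the labelled-female minus the labelled-male difference. Every interval crosses 0.

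In the Dlg family, Dlg4 and Dlg3 varied little between libraries and Dlg2 varied more. Dlg4 (ENSMUSG00000020886, chromosome 11, 70016942 to 70047522, plus strand, GRCm38) had 880.0, 910.3 and 895.5 CPM in labelled-female SERTPyramid libraries, against 918.2, 908.2 and 896.9 CPM in labelled-female SERTfl/fl libraries. It had 872.6, 915.0 and 877.1 CPM in labelled-male SERTPyramid libraries, against 882.2, 930.6 and 927.0 CPM in labelled-male SERTfl/fl libraries. The groups overlapped in both labels, and the coefficient of variation over 12 libraries, 2.22%, was the lowest of the 10 members. The mean log2 fold change was -0.04 ± 0.03 (edgeR, SE, adjusted p = 0.81).

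Dlg2 (ENSMUSG00000052572, chromosome 7, 90476672 to 92449247, plus strand) encodes a relative of PSD-95 that also holds NMDA receptors and potassium channels. It had 404.8, 434.9 and 438.1 CPM in labelled-female SERTPyramid libraries, against 435.5, 429.8 and 449.9 CPM in labelled-female SERTfl/fl libraries. It had 416.3, 412.8 and 360.1 CPM in labelled-male SERTPyramid libraries, against 387.6, 438.5 and 450.0 CPM in labelled-male SERTfl/fl libraries. The lowest value of each labelled-male genotype stood well apart from the other two, SERTPyramid replicate 3 and SERTfl/fl replicate 1. Its mean log2 fold change of -0.09 ± 0.05 (SE) had an unadjusted p of 0.0933 and an adjusted p of 0.763 by edgeR, and the interval ran from -12.2 to 1.12%. The mean was -0.05 without labelled-male SERTPyramid replicate 3 and -0.12 without labelled-male SERTfl/fl replicate 1. In labelled males the log2 fold change was -0.11 ± 0.07 (edgeR, SE, adjusted p = 0.999). It was -0.04 without SERTPyramid replicate 3 and -0.18 without SERTfl/fl replicate 1.

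Dlg3 (ENSMUSG00000000881, chromosome X, 100767722 to 100818410, plus strand) encodes SAP102, the family member most associated with young synapses. It had 208.8, 218.4 and 218.6 CPM in labelled-female SERTPyramid libraries, against 213.5, 210.2 and 214.5 CPM in labelled-female SERTfl/fl libraries. It had 221.9, 204.7 and 205.6 CPM in labelled-male SERTPyramid libraries, against 202.4, 216.4 and 211.0 CPM in labelled-male SERTfl/fl libraries. The groups overlapped in both labels and the mean log2 fold change was -0.0036 ± 0.034 (edgeR, SE, adjusted p = 0.993).

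Dlg1 (ENSMUSG00000022770, chromosome 16, 31663443 to 31875129, plus strand) encodes SAP97, a carrier of AMPA receptors. It had 41.0, 44.5 and 44.0 CPM in labelled-female SERTPyramid libraries, against 39.4, 40.2 and 43.2 CPM in labelled-female SERTfl/fl libraries. It had 40.8, 40.9 and 41.9 CPM in labelled-male SERTPyramid libraries, against 37.4, 45.8 and 42.9 CPM in labelled-male SERTfl/fl libraries. The labelled-male SERTfl/fl libraries spanned all 3 SERTPyramid values. The log2 fold change was 0.06 ± 0.07 in labelled females and -0.05 ± 0.07 in labelled males (SE), and the difference between these was 0.10 ± 0.10 (edgeR, SE, adjusted p = 0.999). That difference was 0.03 without labelled-male SERTfl/fl replicate 2 and 0.18 without labelled-male SERTfl/fl replicate 1.

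**Figure D3:**
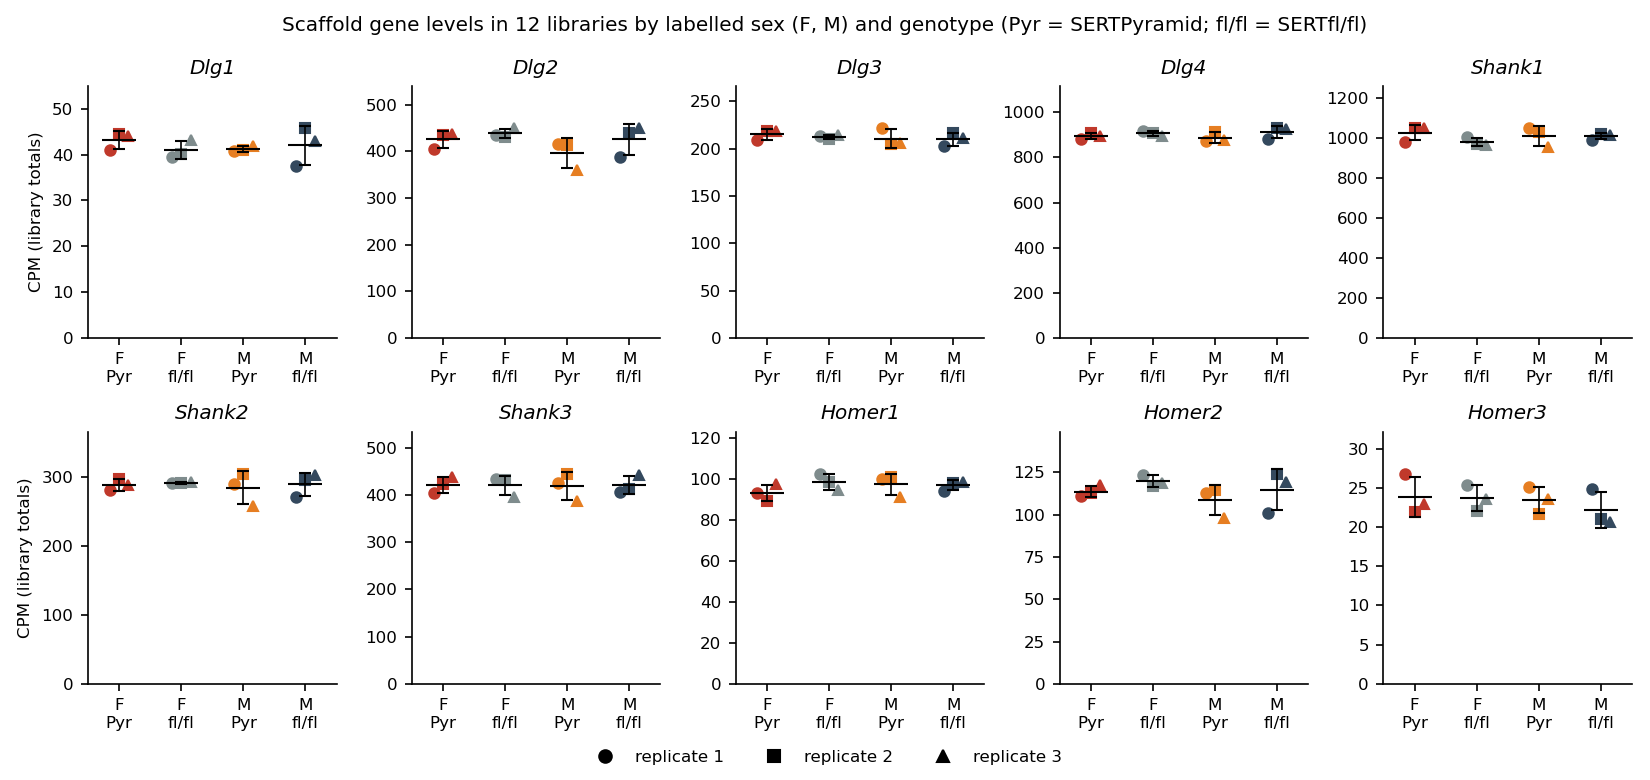
CPM of each scaffold gene in every library, by labelled sex and genotype, with SERTPyramid left of SERTfl/fl, 1 point per library, and a line and bars for the mean ± SD of 3 libraries. The genotypes overlap in all 10 genes and in both labelled sexes, and SERTPyramid replicate 3 labelled male is the lowest of the 12 libraries for 5 genes.

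The genotypes also overlapped for the 3 Shank genes. Shank1 (ENSMUSG00000038738, chromosome 7, 44310253 to 44360572, plus strand) had 982.3, 1049.2 and 1050.2 CPM in labelled-female SERTPyramid libraries, against 1004.0, 970.0 and 964.6 CPM in labelled-female SERTfl/fl libraries. It had 1049.7, 1028.9 and 953.0 CPM in labelled-male SERTPyramid libraries, against 992.1, 1019.9 and 1017.5 CPM in labelled-male SERTfl/fl libraries. In labelled females 2 of the 3 SERTPyramid libraries were above all SERTfl/fl libraries, and in labelled males SERTPyramid held both the highest and the lowest values. The log2 fold change was 0.05 ± 0.05 in labelled females (edgeR, SE, adjusted p = 0.839), with an interval from -3.85 to 11.8%. It was 0.03 without SERTPyramid replicate 3 and 0.09 without SERTPyramid replicate 1 of that label. It was -0.01 ± 0.05 in labelled males (edgeR, SE, adjusted p = 0.999).

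Shank2 (ENSMUSG00000037541, chromosome 7, 144001928 to 144424494, plus strand) encodes a scaffold also known as ProSAP1. It had 280.7, 297.0 and 287.8 CPM in labelled-female SERTPyramid libraries, against 291.1, 290.6 and 292.9 CPM in labelled-female SERTfl/fl libraries. It had 290.2, 304.5 and 257.7 CPM in labelled-male SERTPyramid libraries, against 270.5, 295.7 and 302.6 CPM in labelled-male SERTfl/fl libraries. The labelled-female SERTfl/fl libraries were almost level, while the labelled-male SERTPyramid libraries held both the highest and the lowest of the 12 values. The mean log2 fold change was -0.04 ± 0.04 (edgeR, SE, adjusted p = 0.896).

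Shank3 (ENSMUSG00000022623, chromosome 15, 89499623 to 89560261, plus strand) had 403.4, 422.7 and 437.8 CPM in labelled-female SERTPyramid libraries, against 433.1, 431.5 and 396.4 CPM in labelled-female SERTfl/fl libraries. It had 426.5, 444.9 and 386.8 CPM in labelled-male SERTPyramid libraries, against 406.3, 413.7 and 443.2 CPM in labelled-male SERTfl/fl libraries. The 4 group means lay between 419.4 and 421.3 CPM, closer together than the libraries within any group. The mean log2 fold change was -0.02 ± 0.05 (edgeR, SE, adjusted p = 0.964), with an interval from -7.34 to 5.64%.

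In the Homer family, Homer1 and Homer2 were lower on average in labelled-female SERTPyramid libraries, by an amount that did not pass the test. Homer1 (ENSMUSG00000007617, chromosome 13, 93299635 to 93405129, plus strand) had 93.1, 89.4 and 97.5 CPM in labelled-female SERTPyramid libraries, against 102.6, 98.8 and 94.6 CPM in labelled-female SERTfl/fl libraries. It had 100.2, 100.9 and 91.5 CPM in labelled-male SERTPyramid libraries, against 94.3, 98.3 and 98.6 CPM in labelled-male SERTfl/fl libraries. In labelled females 2 of 3 SERTPyramid libraries were below all SERTfl/fl libraries, and in labelled males 2 of 3 were above all of them. The log2 fold change in labelled females was -0.10 ± 0.06 (SE), a decrease of 6.49% on average with an interval from -13.8 to 1.44% and an adjusted p of 0.702 by edgeR. It was -0.06 without SERTfl/fl replicate 1 and -0.14 without SERTPyramid replicate 3 of that label. In labelled males it was -0.0053 ± 0.056 (edgeR, SE, adjusted p = 0.999), and the difference between the labels was -0.09 ± 0.08 (edgeR, SE, adjusted p = 0.999).

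Homer2 (ENSMUSG00000025813, chromosome 7, 81600481 to 81707527, minus strand) had 110.8, 112.8 and 117.3 CPM in labelled-female SERTPyramid libraries, against 123.7, 116.8 and 118.7 CPM in labelled-female SERTfl/fl libraries. It had 113.0, 114.6 and 98.3 CPM in labelled-male SERTPyramid libraries, against 100.9, 124.1 and 119.1 CPM in labelled-male SERTfl/fl libraries. In labelled females the genotypes overlapped through 1 library on each side, and in labelled males each genotype had 1 low library. The log2 fold change was -0.09 ± 0.08 in labelled females and -0.09 ± 0.08 in labelled males (edgeR, SE, adjusted p = 0.806 and 0.999). The mean, -0.09 ± 0.05 (edgeR, SE, unadjusted p = 0.112, adjusted p = 0.768), had an interval from -13.5 to 1.7%. The mean was -0.05 without labelled-male SERTPyramid replicate 3 and -0.13 without labelled-male SERTfl/fl replicate 1. In labelled males the log2 fold change was -0.01 without SERTPyramid replicate 3 and -0.18 without SERTfl/fl replicate 1.

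Homer3 (ENSMUSG00000003573, chromosome 8, 70282827 to 70294361, plus strand), best known from cerebellar Purkinje cells, was the least deeply counted member. It had 26.8, 21.9 and 22.9 CPM in labelled-female SERTPyramid libraries, against 25.4, 22.1 and 23.6 CPM in labelled-female SERTfl/fl libraries. It had 25.1, 21.7 and 23.6 CPM in labelled-male SERTPyramid libraries, against 24.9, 21.0 and 20.7 CPM in labelled-male SERTfl/fl libraries. The highest library was replicate 1 in each of the 4 groups, and the groups overlapped. The mean log2 fold change was 0.03 ± 0.06 (edgeR, SE, adjusted p = 0.935). Homer3 shares 25.4% of its exonic bases with Ddx49 on the opposite strand, and the library kit does not mark strand. How reads in shared bases were counted is not given, so Homer3 counts may include reads from Ddx49 or lack reads of Homer3. The level of Homer3 per kb, and its place among the Homer genes, may be off in either direction, which was not tested. For the other members such overlap was 4.16% or less of exonic bases.

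In a fit restricted to the 6 labelled-female libraries, which uses their smaller spread, edgeR's unadjusted p was under 0.05 for 2 of 10 members, Homer1 and Homer2, against 13.9% of 17108 genes. The log2 fold change of Homer1 there was -0.10 ± 0.04 (edgeR, SE, unadjusted p = 0.0439, adjusted p = 0.336). That of Homer2 was -0.09 ± 0.04 (edgeR, SE, unadjusted p = 0.0407, adjusted p = 0.325). An adjusted p under 0.05 was reached by 0 of 10 members, against 2.43% of all genes. The common biological coefficient of variation was 0.0508 in the labelled-female libraries, 0.0785 in the labelled-male libraries and 0.0668 over all 12.

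Most point estimates lay slightly below 0. In labelled females 7 of 10 members had a log2 fold change below 0, with a median of -0.022, beside -0.00038 over all genes tested, of which 49.9% were above 0. In labelled males 9 of 10 were below 0, with a median of -0.029, beside 0.0016 over all genes, of which 50.5% were above 0. The 10 genes are not independent of each other and none passed the test alone, so these counts describe the members only.

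The members varied together across libraries. Pearson's r of log2 CPM over 12 libraries was above 0 for 35 of the 45 pairs of members and above 0.5 for 27, with a median of 0.561. Each member's median r with all tested genes lay between -0.028 and 0.0068. That of Homer3, whose r with every other member was below 0, lay there too. Such a median therefore cannot show whether the members vary together more than other genes do. The closest pair was Dlg2 with Homer2, r = 0.927. Dlg2 with Shank2 followed at 0.886, Shank2 with Homer2 at 0.865 and Dlg4 with Shank2 at 0.826. Pairs within a family had a median r of 0.661 (12 pairs) and pairs between families 0.538, so co-variation crossed the layers of the scaffold. These are descriptions over libraries that share depth, base composition and 4 groups, and they carry no test. They include labelled-male SERTPyramid replicate 3, described below as low for most members, and were not recomputed without it.

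Homer3 stood apart. Its r with each of the other 9 members was below 0, from -0.106 with Homer1 to -0.691 with Dlg1, with a median of -0.371. The other 9 members had a median r with their fellow members between 0.475 and 0.71. Homer3 is also the member with the fewest counts and with the overlap with Ddx49 described above, and the part of either in its pattern was not tested.

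SERTPyramid replicate 3 labelled male was low across most of the scaffold. In log2 CPM scaled by TMM, edgeR's normalization between libraries, it was below the 12-library mean for 10 of 10 members, with a median deviation of -0.108, and held the lowest value of 7 of them. By CPM from library totals, as given above for each gene, it was below the mean for 8 of 10 and lowest for 5. Its deviations were -0.254 for Dlg2, -0.243 for Homer2 and -0.191 for Shank2, but only -0.026 for Dlg1 and -0.009 for Homer3. SERTPyramid replicate 1 labelled female and SERTfl/fl replicate 1 labelled male were each below the mean for 9 of 10 members, each with a median deviation of -0.061. Without SERTPyramid replicate 3, the labelled-male log2 fold changes of Shank1, Shank2, Shank3, Homer1 and Dlg3 were 0.04, 0.04, 0.05, 0.05 and 0.02. Each was above 0, where all 5 had been below 0, but a rise was bound to follow from leaving out a low SERTPyramid library. In the labelled-male libraries alone without SERTfl/fl replicate 1, the values of the same 5 genes were -0.027, -0.089, -0.045, -0.028 and -0.036.

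**Figure D4:**
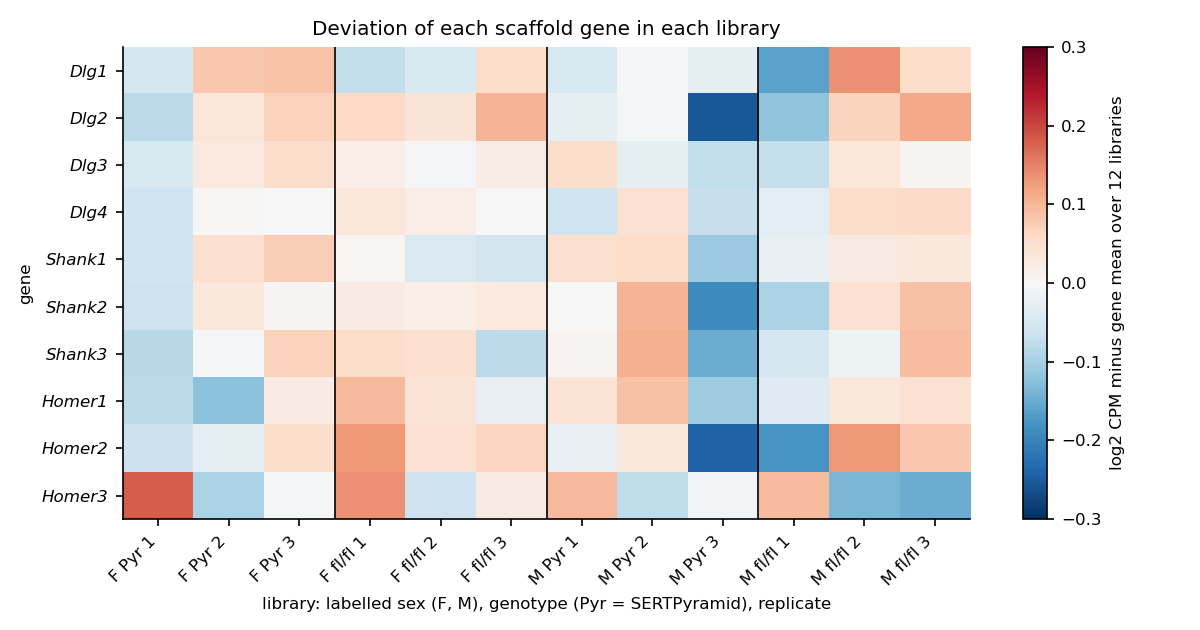
Deviation of TMM-scaled log2 CPM from each gene's mean over 12 libraries, shown by colour, with genes down the page and libraries across, SERTPyramid left of SERTfl/fl within each labelled sex. SERTPyramid replicate 3 labelled male is below the mean for 10 of 10 genes, and the Homer3 row runs against the other rows.

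Base composition differed between the libraries, and the members' transcripts ranged from 42.0% GC (Homer1) to 62.5% GC (Shank1). The trend of log2 CPM over all genes, taken as the change between 40 and 60% GC, was -0.017, 0.076 and 0.082 in labelled-female SERTPyramid libraries, against -0.099, -0.049 and -0.108 in labelled-female SERTfl/fl libraries, with no overlap. It was -0.046, 0.048 and 0.082 in labelled-male SERTPyramid libraries, against 0.091, -0.070 and -0.016 in labelled-male SERTfl/fl libraries, with overlap. Across the 12 libraries the r of this trend with the level was -0.658 for Homer2, -0.527 for Dlg2, -0.465 for Homer1, -0.416 for Dlg3, -0.39 for Shank2 and -0.309 for Dlg4. It was -0.142 for Homer3, -0.116 for Dlg1, -0.0744 for Shank3 and 0.112 for Shank1. These values did not follow the order of GC content, since the GC-poor Dlg1 (44.6%) was nearer 0 than Shank2 (56.0%).

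With offsets that remove each library's GC trend, the GC-poor members moved up and the GC-rich members down in labelled females. The log2 fold change of Homer1 became -0.04 in place of -0.10, and that of Dlg2 became -0.01 in place of -0.06. That of Shank1 became -0.0076 in place of 0.05, so the direction of Shank1 in labelled females depends on this correction. Dlg4, near the middle of the GC range, reached -0.07 ± 0.03 for the mean over labelled sexes (edgeR, SE, unadjusted p = 0.0532, adjusted p = 0.882). After this correction 9 of 10 members were below 0 in labelled females and 9 of 10 in labelled males, with medians of -0.053 and -0.050. Over all genes tested the medians were -0.0028 and -0.0015, and 48.8% and 49.3% of genes were above 0. In either label 0 members passed the test, which had to follow, since 0 of 17631 genes passed. The members are not independent of each other, so these counts describe them only. The part of GC content in the uncorrected values was otherwise not tested.

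**Figure D5:**
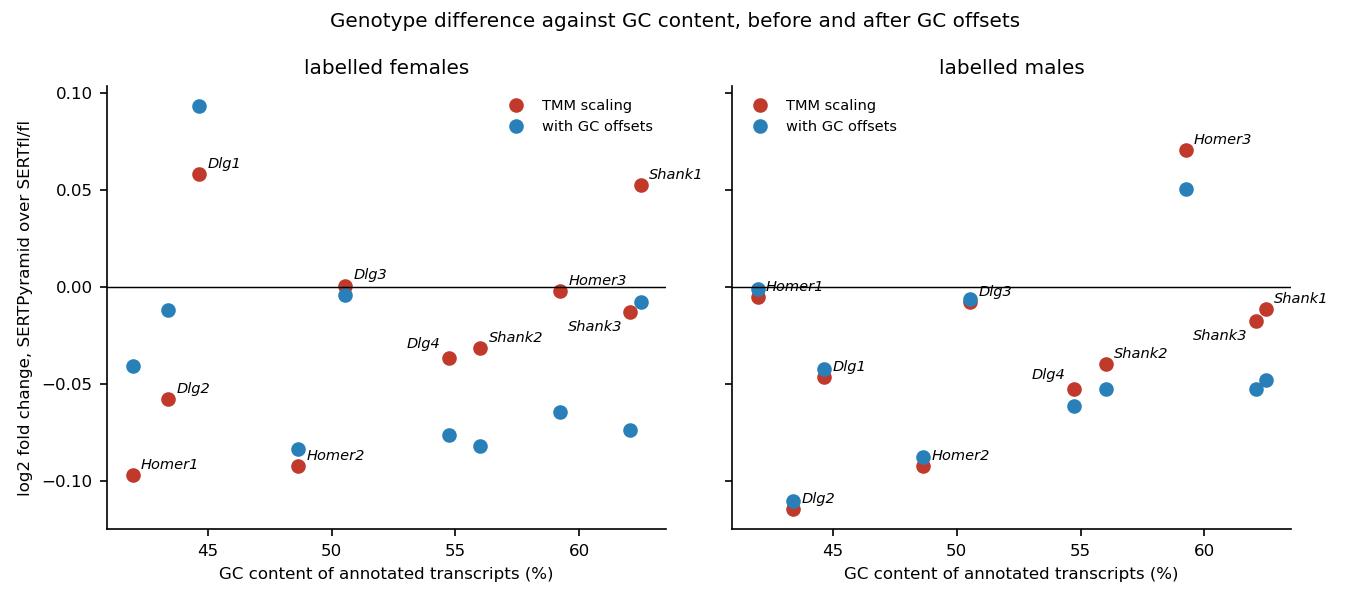
Log2 fold change of SERTPyramid over SERTfl/fl against the GC content of each scaffold gene's annotated transcripts, before (red) and after (blue) offsets for each library's GC trend, in labelled females and labelled males. In labelled females the corrected value is -0.04 in place of -0.10 for Homer1 and -0.0076 in place of 0.05 for Shank1.

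Transcripts of the proteins that the scaffolds join were not called either. With 12 libraries in the model 0 genes passed in any of 7 lists of partners. Of all 17631 genes tested 0.00% passed there, so this 0 had to follow and does not describe the partners. Values below are log2 fold changes for the mean over labelled sexes with their SE. All 4 SAPAP linkers, which connect PSD-95 to Shank, were tested, and the smallest p-values were those of Dlgap2 at -0.08 ± 0.06 and Dlgap1 at -0.05 ± 0.04 (adjusted p = 0.81 and 0.819 by edgeR). Among 23 other adaptors 9 were above 0 and 14 below, with a median of -0.022. Cask, a membrane-associated guanylate kinase with a kinase-like domain, was at -0.11 ± 0.04 (unadjusted p = 0.0147, adjusted p = 0.756 by edgeR). Its partner Lin7c was at -0.07 ± 0.03, while Baiap2, the actin regulator IRSp53, was at 0.08 ± 0.04 and Begain, a PSD-95 binding protein, at 0.08 ± 0.05. Of 8 postsynaptic enzymes 3 were above 0 and 5 below. Sipa1l1, a Rap GTPase activator, was at -0.06 ± 0.04, Kalrn, a guanine nucleotide exchange factor, at -0.03 ± 0.06, and Camk2a, a calcium-dependent kinase, at -0.02 ± 0.07.

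Receptors and adhesion proteins held by the scaffold were tested for 14 of 15 listed genes, since Cacng8 failed the filter, and 4 were above 0 and 10 below. Nlgn1, the adhesion protein neuroligin 1, was at -0.10 ± 0.04 (unadjusted p = 0.0356, adjusted p = 0.756 by edgeR). Cacng2 and Cacng3, AMPA receptor auxiliary subunits, were at -0.09 ± 0.05 and -0.06 ± 0.04, and Grin1, the obligatory NMDA receptor subunit, at 0.05 ± 0.04. Of 8 Homer ligands 2 were above 0 and 6 below, with Dnm3, an endocytic dynamin, at -0.08 ± 0.04 and Grm5, a metabotropic glutamate receptor, at -0.07 ± 0.04. Cacna1c, a calcium channel subunit, was at -0.06 ± 0.05 and Agap2, the PIKE GTPase, at 0.04 ± 0.04.

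Of 8 spine actin proteins 2 were above 0 and 6 below, led by Wasf1, the actin nucleation factor WAVE1, at -0.08 ± 0.04 (unadjusted p = 0.0282, adjusted p = 0.756 by edgeR). Its complex partners Abi2 and Abi1 were at -0.07 ± 0.04 and -0.05 ± 0.03, and Synpo, of the spine apparatus, at -0.05 ± 0.04. The inhibitory synapse served as a contrast, with 5 of 6 listed genes tested, 1 above 0 and 4 below. Gphn, the inhibitory scaffold gephyrin, was at -0.07 ± 0.03 (unadjusted p = 0.0312, adjusted p = 0.756 by edgeR) and Lhfpl4, a GABA-A receptor partner, at -0.05 ± 0.04. The partner genes named were those with the smallest p in their lists. For this mean edgeR's unadjusted p was under 0.05 for 2 of 23 other adaptors and 1 of 14 receptors and adhesion proteins. It was so for 1 of 8 spine actin proteins, 1 of 5 inhibitory synapse genes and 0 in the other lists, beside 6.49% of all genes.

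Fitted alone, the labelled-female libraries gave 2 calls among the 70 genes tested in these 7 lists, or 2.86%, close to the 2.43% of all genes above, so the lists as a whole did not stand out from the background. The 2 genes were chosen for mention after their values were seen. Cask was lower in SERTPyramid at -0.15 ± 0.04 (edgeR, SE, adjusted p = 0.0426), and the NMDA receptor subunit gene Grin2b was lower at -0.20 ± 0.04 (edgeR, SE, adjusted p = 0.00575). On leaving out each labelled-female library in turn, Cask lay between -0.184 and -0.128 and passed only without SERTfl/fl replicate 1 (edgeR, adjusted p = 0.0179, against 0.0817 to 0.212 without any other library). Grin2b lay between -0.245 and -0.162 and missed the threshold without SERTPyramid replicate 2 (edgeR, adjusted p = 0.055). The GC trend did not overlap between genotypes in the labelled-female libraries, and how Cask and Grin2b stood with GC offsets was not examined. In the labelled-male libraries alone Cask was at -0.07 ± 0.07 and Grin2b at -0.05 ± 0.19 (edgeR, SE, adjusted p = 1.00 for each). With all 12 libraries in the model the labelled-female value of Grin2b was -0.20 ± 0.16 (edgeR, SE, adjusted p = 0.794). Both proteins bind scaffold members, and no scaffold member was called in the labelled-female libraries alone.

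For each scaffold gene the 2 most similar genes were taken by Pearson's r of log2 CPM over 12 libraries among 10424 candidates with a mean log2 CPM of at least 3. Dlg2 was followed most closely, by Gabrb2 (r = 0.975), a GABA-A receptor subunit gene, and Scn2a (r = 0.971), a sodium channel gene. Homer2 came next with Psd3 at 0.965 and Pja2 at 0.964. Shank2 was nearest to Dnmt3a at 0.958 and Camsap2 at 0.949, and Dlg1 to Mcc at 0.946 and Prickle1 at 0.886. Dlg4 was nearest to Spred2 at 0.944 and Pitpnc1 at 0.928. Homer1 was nearest to Klhl2 at 0.916 and Ppm1e at 0.908, and Dlg3 to Fam160a2 at 0.909 and Epb41l3 at 0.903. Shank3 was nearest to Wwc2 at 0.900 and Sdha at 0.873, Homer3 to Cpsf3 at 0.891 and Stk38l at 0.863, and Shank1 to Zbtb4 at 0.889 and Arhgap44 at 0.870. With 12 libraries and so many candidates, high values arise readily, and none of these genes is itself a scaffold member.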

How the data were processed

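Total RNA from dorsal hippocampus was extracted with Trizol, and mRNA libraries were prepared with a TruSeq kit that does not mark strand, per the labels' protocols. The authors deposited raw counts per Ensembl gene, on mm10 per the submitters' processing notes. Not given in the sources used here are the aligner, the counting settings, the annotation and the treatment of reads that match several genes. No column was left unmapped (0), and 0 entries named no gene.

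Groups came from the labels. Genes kept by filterByExpr (17631) were scaled by TMM and tested with the quasi-likelihood F test of edgeR 4.0.16 in R 4.3.3, with robust dispersion and all 12 libraries in 4 groups. The SE was derived from the log2 fold change and F, and intervals are 95%. CPM of single libraries and their means use library totals, whereas fold changes, deviations and correlations use TMM scaling. Exon lengths, coordinates and GC content came from GENCODE M21 (GRCm38), and promoters from RefSeq. GC offsets were lowess trends with a span of 0.3. The alternatives were RLE scaling, no filter on low counts, at least 1 CPM in 6 libraries, DESeq2 1.42.0, a replicate block, the compared groups alone (also with GC offsets, added later), GC offsets, Y-linked expression as a covariate, leaving out SERTfl/fl replicate 1 of both labels, and leaving out each library. Named genes were the 10 members, up to 4 genes with the smallest p for the genotype mean per partner list (2 for lists under 8 genes), and the 2 most similar genes per member, predicted genes passed over. A gene that this rule takes is not reported here. The members and lists were chosen with earlier results of these data known. Insyn2a was not matched by symbol and was not analysed here.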

Additional observations from a re-analysis of the deposited data

How the results depend on the processing

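For the 10 scaffold genes, 0 of 840 alternative values passed the threshold. All came from the same 12 libraries. Under RLE scaling, the filter of 1 CPM in 6 libraries, GC offsets, the Y-linked covariate and the replicate block, 0 genes of the whole table were called. The same held without SERTfl/fl replicate 1 of both labels, so in these fits the members' 0 had to follow. In the labelled-female libraries alone 2.43% of all genes were called. The smallest adjusted p among the 840 was 0.325 (edgeR, Homer2, labelled-female libraries alone). Fits of 1 label alone that also left out 1 library were not among the 840. No member passed in those fits either, and Homer1 had an adjusted p of 0.112 without labelled-female SERTPyramid replicate 3 (edgeR). Of the 840 values 82 had the opposite sign to the reported one, 63 of them on leaving out 1 library. The largest of the 82 was 0.078 in size on the log2 scale. The cause was not tested.

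Counts of genes called over the whole table moved more. Without a filter on low counts edgeR called 103 genes in labelled females, 5 in labelled males, 66 for the mean and 14 for the difference. DESeq2 called 1 in labelled females and 0 in the other 3 comparisons, the labelled-female libraries alone gave 415, and 285 with GC offsets as well. The 415 became 136 without SERTPyramid replicate 2, 158 without SERTfl/fl replicate 2 and 251 without SERTfl/fl replicate 1, all labelled female. It became 280 without SERTfl/fl replicate 3, 400 without SERTPyramid replicate 3 and 464 without SERTPyramid replicate 1 of that label. Leaving out 1 library gave 0 to 2 in labelled females and 0 to 144 for the mean, both highest without SERTPyramid replicate 2 labelled male. Counts of 0 stayed 0 under RLE scaling, the stricter filter, GC offsets, the Y-linked covariate and without SERTfl/fl replicate 1 of both labels.

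Values of log2 fold change with the opposite sign were as follows. RLE scaling gave -0.00047 for Dlg3 in labelled females. No filter gave -0.00012 for Homer2 in the difference between labels. DESeq2 gave -0.0021 for Dlg3 in labelled females and -0.00023 for Homer2 in the difference between labels. The compared groups alone gave 0.00040 for Homer3 in labelled females. GC offsets gave -0.0042 for Dlg3 in labelled females, -0.0076 for Shank1 in labelled females, -0.028 for Shank1 in the mean of both, -0.0071 for Homer3 in the mean of both, -0.015 for Dlg4 in the difference between labels, -0.029 for Shank2 in the difference between labels and -0.021 for Shank3 in the difference between labels. With the compared groups alone and GC offsets together the values were -0.0027 for Dlg3 in labelled females and -0.0048 for Shank1 in labelled females. The Y-linked covariate gave 0.015 for Shank3 in labelled females. Without SERTfl/fl replicate 1 of both labels the values were 0.013 for Shank3 in labelled females, 0.054 for Homer3 in labelled females and -0.043 for Dlg1 in the mean of both.

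Leaving out each library in turn changed the sign of some estimates. For labelled females the ranges were Dlg3 -0.017 to 0.034, Shank3 -0.052 to 0.029 and Homer3 -0.082 to 0.056. For labelled males the ranges were Dlg1 -0.12 to 0.016, Dlg3 -0.041 to 0.021, Shank1 -0.039 to 0.041, Shank2 -0.11 to 0.037, Shank3 -0.077 to 0.049 and Homer1 -0.045 to 0.050. For the mean of both the ranges were Dlg1 -0.030 to 0.034, Dlg3 -0.019 to 0.014, Shank2 -0.068 to 0.0030, Shank3 -0.044 to 0.018 and Homer3 -0.0052 to 0.076. For the difference between labels the ranges were Dlg2 -0.019 to 0.12, Dlg3 -0.020 to 0.045, Dlg4 -0.0049 to 0.055, Shank2 -0.068 to 0.078, Shank3 -0.061 to 0.066 and Homer2 -0.078 to 0.088.

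Over all genes tested, replicate numbers gave no sign of pairing. Deviations of same-numbered libraries correlated at 0.072, -0.0076 and 0.043 in labelled females and 0.058, 0.018 and -0.142 in labelled males. Differently numbered libraries ran from -0.088 to 0.041 in labelled females and from -0.18 to 0.194 in labelled males. Whether libraries shared litters or batches cannot be told from these values. With a replicate block within each label edgeR called 0 genes in all 4 comparisons, and the value of Homer2 in the difference between labels became -0.0025. With 3 libraries a group, differences in a member within its interval were not detectable, and Homer3, the member with the fewest counts, had the largest SE for the mean, 0.060 (edgeR). Intervals cover the spread between libraries and the gene-level sum of transcripts only.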
